A study of Homo sapiens with 12 samples.

Results

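The pro-apoptotic branch of the BCL2 family was examined at the mRNA level in proliferating and senescent human fibroblasts. The 10 genes were taken by symbol, whatever their values: the effectors BAX, BAK1 and BOK, and the BH3-only genes BBC3, PMAIP1, BCL2L11, BAD, BID, BIK and BMF. Each had 1 row among the 57773 genes counted in every library. The cells were WI-38, diploid fibroblasts of human lung held in culture between population doubling levels 15 and 25, and all cells were transfected with 25 nM of an siRNA pool. Proliferating cells received a non-targeting pool (siCtrl) and were cultured in the vehicle DMSO for 8 days. Senescent cells were exposed for 8 days to 50 µM etoposide, a topoisomerase II poison that breaks DNA, after transfection with siCtrl, with a pool directed at NTRK2 mRNA, which encodes the receptor TrkB (siNTRK2), or with a pool directed at BDNF mRNA, which encodes a TrkB ligand (siBDNF). Each of the 4 groups had 3 libraries. There was 1 cell line and 1 siRNA pool per target, and no proliferating cells received siNTRK2 or siBDNF.

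BAX and BAK are the proteins that, once activated, oligomerize in the outer mitochondrial membrane and let cytochrome c escape, which starts the caspase cascade. BOK is related to both. BH3-only proteins sense stress: BIM (BCL2L11), PUMA (BBC3) and cleaved BID can engage every anti-apoptotic family member and activate the effectors, whereas BAD, NOXA (PMAIP1), BIK and BMF act by occupying a narrower set of anti-apoptotic partners such as BCL-XL or MCL1. Senescent cells typically resist apoptosis, and compounds that imitate BH3 domains are known to kill them. PUMA, NOXA and BAX genes are textbook members of the transcriptional response to DNA damage, and BIM and PUMA genes are targets of FOXO factors. Many of these proteins are also controlled after transcription, by cleavage (BID), phosphorylation (BAD, BIM) or binding to dynein light chains (BIM, BMF), which mRNA counts do not show.

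The bases upstream of the start sites of 3 BH3-only genes are shown because their mRNAs gave the clearest differences below. They are the 250 bases before the RefSeq start on GRCh38.p14, 5′ to 3′ on the gene's strand. Capitals mark a match to GTAAACA, a core sequence bound by FOXO factors; BMF and PMAIP1 windows had no match.
BCL2L11: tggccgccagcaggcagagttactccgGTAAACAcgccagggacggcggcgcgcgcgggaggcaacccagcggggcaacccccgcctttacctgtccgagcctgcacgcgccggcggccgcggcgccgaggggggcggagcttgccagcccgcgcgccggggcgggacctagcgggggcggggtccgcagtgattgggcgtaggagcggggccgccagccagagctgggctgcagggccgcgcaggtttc
BMF: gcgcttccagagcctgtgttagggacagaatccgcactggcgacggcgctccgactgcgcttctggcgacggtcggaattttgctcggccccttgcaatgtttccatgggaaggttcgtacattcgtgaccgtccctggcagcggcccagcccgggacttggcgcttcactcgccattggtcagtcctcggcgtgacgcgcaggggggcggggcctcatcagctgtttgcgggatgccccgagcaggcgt
PMAIP1: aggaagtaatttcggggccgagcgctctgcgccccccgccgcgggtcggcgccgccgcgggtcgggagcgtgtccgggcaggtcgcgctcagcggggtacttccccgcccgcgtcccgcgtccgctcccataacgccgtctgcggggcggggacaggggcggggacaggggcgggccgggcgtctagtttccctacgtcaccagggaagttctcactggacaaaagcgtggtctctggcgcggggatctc

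These windows lie on chr2:111120664-111120913 (BCL2L11, plus strand), chr15:40108880-40109129 (BMF, minus strand, the more upstream of 2 annotated starts) and chr18:59899746-59899995 (PMAIP1, plus strand). RefSeq windows were at hand for 9 of the 10 genes, all but BIK. The letters GTAAACA, searched on both strands, began 223 bases before the BCL2L11 start and were in no window of the other 8 genes; 2.98% of 35116 windows of all genes held them. A further motif, RRRCWWGYYY (R is A or G, W is A or T, Y is C or T), a half-site of a DNA damage response factor, was also searched. Among these genes it matched only in the BAK1 window, 73 bases before the start, and 5.57% of all windows held it. It was in no window of BAX, BBC3 or PMAIP1. Both motifs were chosen with expression results of these libraries known, and a match in these letters is a description, not evidence that a factor binds.

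Libraries held between 31567912 and 72328151 counts. BDNF mRNA lay between 156.7 and 169.2 CPM (counts scaled to TMM-adjusted library totals) in siCtrl-transfected senescent cells and between 44.3 and 48.9 CPM after siBDNF, with no overlap. After siNTRK2 it lay at 203.4 to 205.7 CPM, above every siCtrl library, and in proliferating cells at 153.4 to 162.6 CPM. NTRK2 mRNA was near the detection limit, with 7, 15 and 10 reads in siCtrl-transfected senescent libraries and 0 in each of the 3 siNTRK2 libraries. The siBDNF libraries had 10, 23 and 29 NTRK2 reads. The 8 fibroblast markers summed to 39000 to 40730 CPM in proliferating cells and 32410 to 36730 CPM in senescent siCtrl cells. The sums were 42560 to 45230 CPM after siNTRK2 and 37420 to 39440 CPM after siBDNF. In senescence 2 were higher and 5 lower (29.8% and 28.3% of all genes). With siNTRK2 5 were higher and 1 lower (11.1% and 10%), and with siBDNF 2 and 4 (10.3% and 10.2%). Their part in the differences below was not tested. Of the markers of other cell types, EPCAM, CDH1, KRT5, CDH5, CD3E, CD14 and PTPRC stayed near or below 1 CPM in every library. The endothelial VWF lay at 0.379 to 1.13 CPM in proliferating libraries and at 1.33 to 2.35 CPM in senescent ones, and was higher in senescence (2.31-fold, edgeR adjusted p = 0.000206). KRT8 and KRT18 were well above these levels, and the epithelial markers summed to between 66.4 and 81.4 CPM. CD68, a lysosomal protein used as a macrophage marker, carried nearly all of the immune sum, which was 49.7 to 56.6 CPM in proliferating cells, 107.8 to 114.6 CPM in senescent siCtrl cells, 76.9 to 80.4 CPM after siNTRK2 and 179.8 to 183.1 CPM after siBDNF. PTPRC, which encodes the leukocyte antigen CD45, had 0 reads in proliferating libraries and was at least 51.2-fold higher in senescent siCtrl libraries, against a floor of 3 reads over the group, at a level of 0.793 to 1.07 CPM. Summed CPM of 4 proliferation markers (MKI67, TOP2A, CCNB1, LMNB1) was 222 to 236 in proliferating cells, 25.98 to 27.6 in senescent siCtrl cells, 49.1 to 50.0 after siNTRK2 and 27.9 to 29.2 after siBDNF. All 4 markers were higher with siNTRK2 than with siCtrl. With siBDNF, MKI67 was higher as well (log2 fold change 0.91, edgeR adjusted p = 0.000553) and the other three were not called.

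The genes spanned a wide range of abundance. Normalized per kilobase of annotated exon (RPKM), the senescent siCtrl mean was highest for BAX, at 38.7 ± 1.14 (SD, n = 3), followed by BAD at 25.7 ± 0.811, PMAIP1 at 18.4 ± 0.985, BAK1 at 17.6 ± 0.527, BOK at 16.03 ± 0.281 and BID at 13.8 ± 0.67. PMAIP1 and BAK1 did not differ beyond their spread in this order. Much lower were BBC3, at 4.10 ± 0.587 RPKM, BMF, at 1.29 ± 0.17 RPKM, and BCL2L11, at 0.403 ± 0.0506 RPKM. BIK, an endoplasmic reticulum BH3-only gene, had 0 to 7 reads per library and was not tested; 3 reads correspond to 0.0427 to 0.0916 CPM depending on the library. The order depends on the length used: over the canonical transcript alone, 0.795 kb for BAX against 2.587 kb of all annotated exons, BAX reached 122 to 129 RPKM and BID, at 26.5 to 29.2 RPKM, moved above PMAIP1, at 20.5 to 22.5 RPKM.

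**Figure D1:**
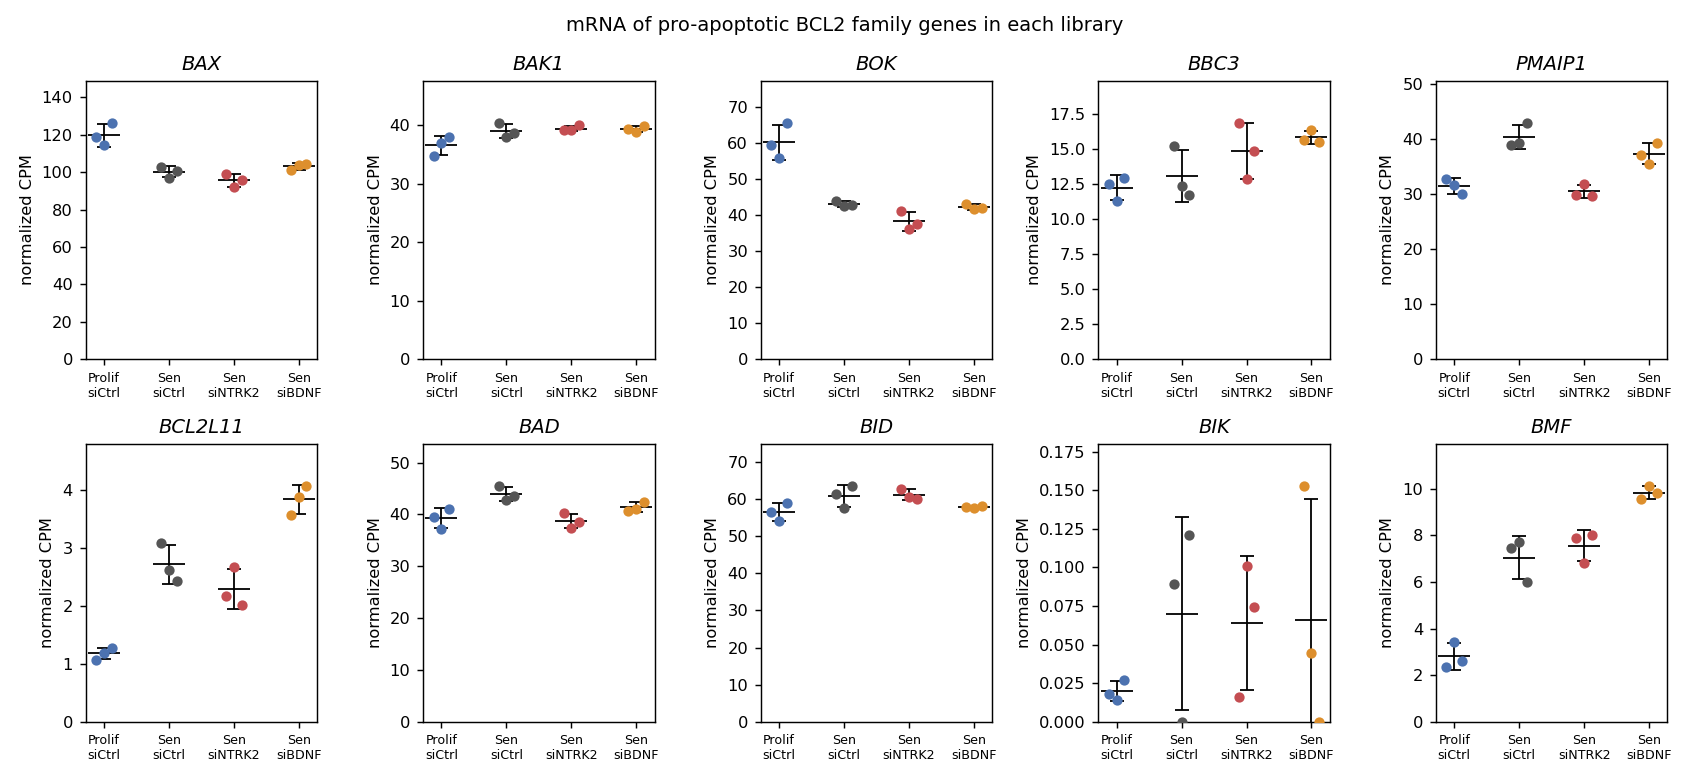
Normalized CPM of the 10 genes (y axis, from 0, 1 panel per gene) in the 3 libraries of each group (points), with the mean and SD as black bars. BMF and BCL2L11 are higher in every senescent library than in any proliferating one, BAX and BOK are lower, and PMAIP1 after siNTRK2 lies at 29.7 to 31.8 CPM, against 38.9 to 42.8 CPM with siCtrl.

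The first comparison asked how the branch differed between senescent and proliferating cells, both with siCtrl. Effector mRNAs were lower or close to their proliferating level, whereas 4 BH3-only mRNAs were higher, BMF and BCL2L11 by more than the study's fold threshold and BAD by a difference that changed sign under a correction for gene length and GC content. Of the 9 genes tested, 6 were called at an adjusted p under 0.05, 4 higher and 2 lower; 58.1% of all 21518 genes tested were called, 29.8% higher and 28.3% lower, so the count lies near the background. With an absolute log2 fold change over 1 in addition, 2 of 9 were called, against 16.7% of all genes. The 6 genes called had groups without overlap, as had 61.3% of all genes. The median log2 fold change was 0.11 for the 9 genes and 0.02 for all genes. CD68 rose by 1.05 on the log2 scale (edgeR adjusted p = 2.68e-15), VWF, PTPRC, CDH1, CD14 and KRT18 were also called higher, and their part in the differences of the 9 genes was not tested. Because these are bulk samples, less mRNA per cell and fewer cells that express a gene cannot be told apart.

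Among the effectors, BAX mRNA was at 118.6, 114.3 and 126.1 CPM in proliferating libraries and at 102.9, 97.0 and 100.6 CPM in senescent ones. Every senescent library lay below every proliferating one, and BAX fell by 0.26 on the log2 scale (SE 0.0476, edgeR adjusted p = 5.66e-05). BOK, whose role in outer membrane permeabilization is less settled, was at 59.3, 55.8 and 65.3 CPM in proliferating libraries and at 43.8, 42.4 and 42.6 CPM in senescent ones. It fell further, by 0.48 on the log2 scale (SE 0.0595, edgeR adjusted p = 1.56e-07), again without overlap. BAK1 differed little, with 34.8, 36.9 and 38.1 CPM in proliferating and 40.3, 38.1 and 38.7 CPM in senescent libraries. Its log2 fold change was 0.09 (95% interval -0.02 to 0.20), and the 2 groups overlapped.

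The BH3-only genes that differed most were those of low abundance. BMF, which responds to loss of attachment and cytoskeletal stress, was at 2.35, 3.43 and 2.63 CPM in proliferating libraries and at 7.45, 7.70 and 5.99 CPM in senescent ones. All senescent libraries were above all proliferating ones, and BMF rose 2.48-fold (log2 fold change 1.31, SE 0.13, edgeR adjusted p = 4.12e-09). BCL2L11, which encodes BIM, was at 1.08, 1.197 and 1.27 CPM in proliferating libraries and at 3.10, 2.62 and 2.44 CPM in senescent ones. This 2.31-fold rise (log2 fold change 1.21, SE 0.17, edgeR adjusted p = 1.1e-06) rested on 47 to 84 reads per proliferating library and 141 to 174 per senescent one. PMAIP1, which encodes the MCL1 partner NOXA, increased from 32.7, 31.7 and 29.9 CPM to 38.9, 39.2 and 42.8 CPM, a smaller shift that also separated the groups (log2 fold change 0.36, SE 0.0601, edgeR adjusted p = 1.61e-05).

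BAD, a BH3-only protein held inactive by survival kinases, was at 39.6, 37.2 and 41.1 CPM in proliferating and at 45.5, 42.8 and 43.6 CPM in senescent libraries. The groups did not overlap and BAD was called (log2 fold change 0.16, SE 0.0548, edgeR adjusted p = 0.0126), but the call was lost without proliferating library 2 (0.11, adjusted p = 0.134) and without senescent siCtrl library 1 (0.14, adjusted p = 0.0682). BBC3, encoding PUMA, had overlapping groups, at 12.5, 11.3 and 12.96 CPM against 15.2, 12.3 and 11.7 CPM. Its log2 fold change of 0.10 (95% interval -0.11 to 0.30) became -0.02 without senescent siCtrl library 1, the highest of the 3. BID, the link from death receptors to mitochondria, lay between 54.0 and 58.9 CPM in proliferating and between 57.7 and 63.5 CPM in senescent libraries. It did not pass the test (log2 fold change 0.11, adjusted p = 0.0671), but was called without proliferating library 3 (0.14, adjusted p = 0.0311) and without senescent siCtrl library 2 (0.13, adjusted p = 0.0368), and with DESeq2 (0.13, adjusted p = 0.0371).

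A correction for gene length and GC content bore on the smaller of these differences. It moved the median of all genes from 0.02 to -0.11 and the share of calls that were higher from 51.3% to 37.4%. Under it BAK1 was at -0.12 (adjusted p = 0.0235), BBC3 at -0.19 (adjusted p = 0.0327), BAD at -0.08 and BID at -0.10, the last pair not called. Relative to that median they were at -0.01, -0.08, 0.03 and 0.01. The 5 larger differences kept their direction and their call, relative to the median at -0.36 for BAX, -0.62 for BOK, 0.62 for PMAIP1, 1.16 for BCL2L11 and 1.19 for BMF. The directions of BAK1, BBC3, BAD and BID therefore depended on this correction, and BAD is counted as higher above only by the fit without it.

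**Figure D2:**
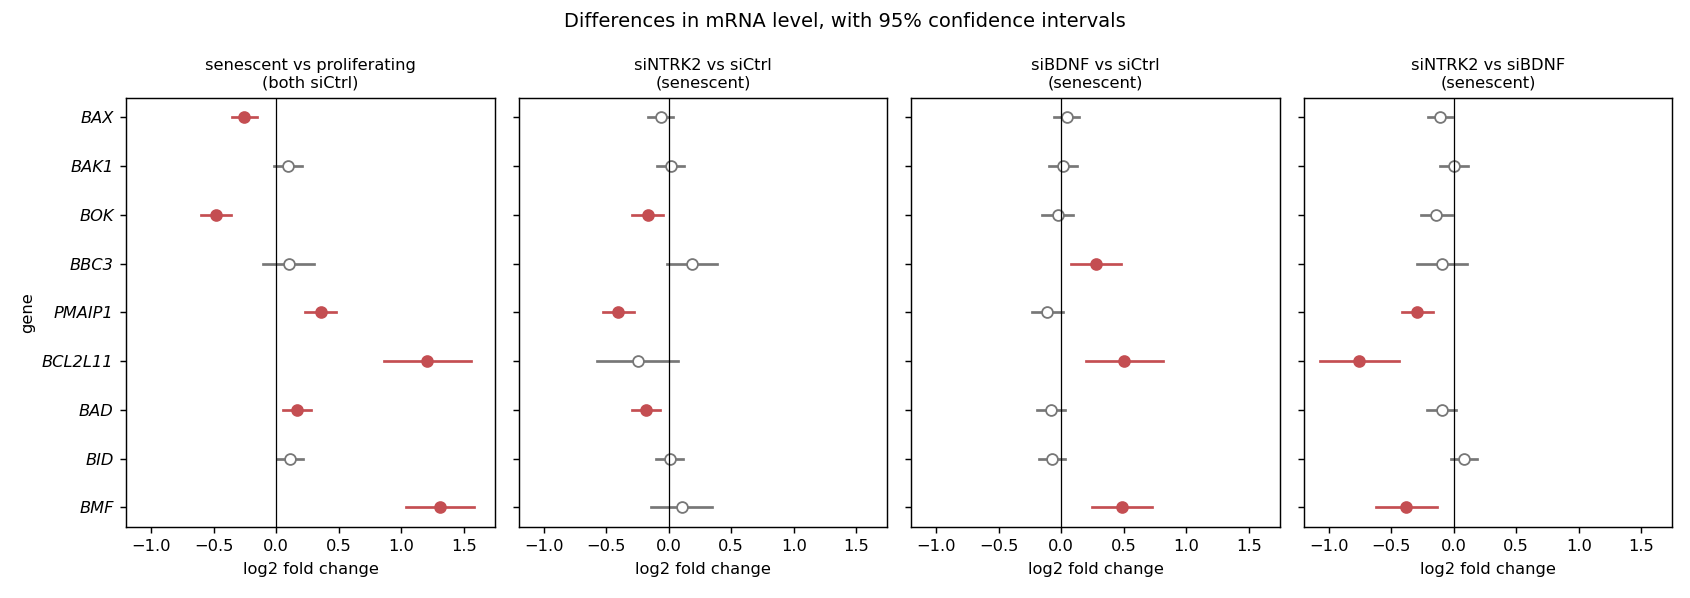
Log2 fold changes (x axis) of the 9 genes tested, 1 panel per comparison; bars are 95% confidence intervals from the edgeR fit, and filled red points are genes with an adjusted p under 0.05. BMF (1.31) and BCL2L11 (1.21) are the only points above 1, and PMAIP1 changes side between the first panel (0.36) and the second (-0.41).

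The second comparison asked what followed when NTRK2 was silenced in senescent cells. The study reports that silencing NTRK2 or BDNF lowered cell survival, with a more marked effect late in senescence. RNA of both silenced groups therefore comes from the cells that remained at day 8. The part of lost cells in the differences from siCtrl was not tested. PMAIP1 showed the largest difference among the called genes, to levels that overlapped with those of proliferating libraries, and none of the 9 genes was called higher. Of the 9 genes tested 3 were called, all lower, PMAIP1, BAD and BOK; over all genes 21.1% were called, 11.1% higher and 10% lower. The 3 called genes were those whose groups did not overlap, as for 32.8% of all genes. None passed the additional threshold of 1, as 0.957% of all genes did. The median was -0.07 for the 9 genes and 0.00 for all genes.

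PMAIP1 was at 38.9, 39.2 and 42.8 CPM with siCtrl and at 29.8, 31.8 and 29.7 CPM with siNTRK2. All siNTRK2 libraries lay below all siCtrl libraries, and PMAIP1 fell by 0.41 on the log2 scale (SE 0.0601, edgeR adjusted p = 2.3e-05). Proliferating cells had 29.9 to 32.7 CPM. BAD dropped from 45.5, 42.8 and 43.6 CPM to 40.3, 37.5 and 38.5 CPM, without overlap (log2 fold change -0.18, edgeR adjusted p = 0.0188). Its call was lost without senescent siCtrl library 1 (-0.16, adjusted p = 0.0989) or 3 (-0.18, adjusted p = 0.0582) and without siNTRK2 library 2 (-0.15, adjusted p = 0.084) or 3 (-0.18, adjusted p = 0.0581), as it was with the length and GC correction (-0.05, adjusted p = 0.457). BOK was at 43.8, 42.4 and 42.6 CPM with siCtrl and at 41.0, 36.0 and 37.5 CPM with siNTRK2, also without overlap. Its adjusted p of 0.0482 (log2 fold change -0.17) held in 5 of 14 alternatives and was lost when any one library was left out except siNTRK2 library 1; without siCtrl library 1, 2 or 3 it was 0.15, 0.0828 or 0.12, and without siNTRK2 library 2 or 3 it was 0.216 or 0.133.

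The other genes did not pass the test. BAX was at 99.0, 92.3 and 95.7 CPM with siNTRK2 against 102.9, 97.0 and 100.6 CPM with siCtrl (log2 fold change -0.07, 95% interval -0.16 to 0.03). BAK1 (log2 fold change 0.01, 95% interval -0.09 to 0.12) and BID (0.01, 95% interval -0.10 to 0.11) overlapped with siCtrl. BMF was at 7.89, 6.81 and 8.01 CPM with siNTRK2, with a log2 fold change of 0.11 (95% interval -0.14 to 0.35). BCL2L11, at 2.18, 2.68 and 2.01 CPM, had a log2 fold change of -0.25 with a wide interval (-0.57 to 0.07). BBC3 was at 16.8, 12.8 and 14.9 CPM (log2 fold change 0.19, adjusted p = 0.189); it was called higher without siCtrl library 1 (0.31, adjusted p = 0.0427), without siNTRK2 library 2 (0.29, adjusted p = 0.038) and with the length and GC correction (0.31, adjusted p = 0.00359). CD68 (log2 fold change -0.50) was lower and the 4 proliferation markers higher in the same siNTRK2 libraries, and their part in these differences was not tested.

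The third comparison asked the same of BDNF silencing. Here BMF and BCL2L11, already higher in senescence, rose again, together with BBC3, and no effector was called. Of the 9 genes tested 3 were called, all higher; over all genes 20.5% were called, 10.3% higher and 10.2% lower, and 0.609% passed the additional threshold of 1, which none of the 9 did. Calls over all genes were 50.5% higher, 69.3% with library totals in place of TMM and 36.5% with the length and GC correction. Groups did not overlap for the 3 called genes and BAD, 4 of 9, and for 37.3% of all genes. The median was 0.01 for the 9 genes and 0.00 for all genes. CD68 (log2 fold change 0.71) and MKI67 (0.91) were higher in the same siBDNF libraries, and their part in these differences was not tested.

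BMF was at 7.45, 7.70 and 5.99 CPM with siCtrl and at 9.59, 10.1 and 9.81 CPM with siBDNF. The groups did not overlap, and BMF rose 1.40-fold (log2 fold change 0.48, SE 0.12, edgeR adjusted p = 0.00399). BCL2L11 was at 3.10, 2.62 and 2.44 CPM with siCtrl and at 3.57, 3.89 and 4.08 CPM with siBDNF, again without overlap (1.42-fold, log2 fold change 0.51, SE 0.15, edgeR adjusted p = 0.0168). That call was lost without siBDNF library 2 (0.50, adjusted p = 0.0594) or 3 (0.46, adjusted p = 0.082) and without siCtrl library 3 (0.44, adjusted p = 0.0881). BBC3 was at 15.2, 12.3 and 11.7 CPM with siCtrl and at 15.6, 16.4 and 15.5 CPM with siBDNF (log2 fold change 0.28, SE 0.0977, edgeR adjusted p = 0.0436). All siBDNF libraries were above the highest siCtrl library, by a small margin. With DESeq2 the adjusted p was 0.0509, and it was 0.0848, 0.152 and 0.0842 without siBDNF library 1, 2 and 3, and 0.126 and 0.23 without siCtrl library 2 and 3.

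PMAIP1, at 37.1, 35.5 and 39.2 CPM with siBDNF, overlapped with siCtrl (log2 fold change -0.11, 95% interval -0.23 to 0.01), although the length and GC correction called it lower (-0.21, adjusted p = 0.00599). BAX was at 101.2, 103.8 and 104.6 CPM (log2 fold change 0.04, 95% interval -0.05 to 0.14) and was called higher with that correction alone (0.13, adjusted p = 0.012). BAK1 was at 0.01 and BOK at -0.03 log2 units from siCtrl, and no effector had an unadjusted p under 0.05 or a DESeq2 call. BAD was lower in every siBDNF library, at 40.7, 41.1 and 42.5 CPM, without passing the test (log2 fold change -0.08, adjusted p = 0.326), and BID was at 57.6 to 58.1 CPM.

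Both silenced groups were compared with the same siCtrl libraries, so the difference between them was tested directly. PMAIP1, BMF and BCL2L11 were all lower with siNTRK2 than with siBDNF, 3 of 9 genes, against 16.7% of all genes called, 8.84% higher and 7.86% lower. Calls over all genes were 52.9% higher, 37.7% with library totals and 72.3% with the length and GC correction. BCL2L11 showed the largest gap, at 2.18, 2.68 and 2.01 CPM against 3.57, 3.89 and 4.08 CPM (log2 fold change -0.76, SE 0.15, edgeR adjusted p = 0.000919). PMAIP1 differed by -0.29 (SE 0.0605, edgeR adjusted p = 0.00111) and BMF by -0.38 (SE 0.12, edgeR adjusted p = 0.0263). The BMF call was lost without siBDNF library 1 (-0.39, adjusted p = 0.0605), 2 (-0.35, adjusted p = 0.0995) or 3 (-0.38, adjusted p = 0.0796) and without siNTRK2 library 2 (-0.30, adjusted p = 0.116). BBC3 did not differ detectably (log2 fold change -0.09, 95% interval -0.29 to 0.11). BAX (-0.11, adjusted p = 0.124) and BOK (-0.14, adjusted p = 0.122) had groups without overlap but were not called; BOK was called without siNTRK2 library 1 (-0.19, adjusted p = 0.0429). In all, 7 of 9 genes had groups without overlap, against 34.2% of all genes. CD68 differed in the same direction (-1.21 on the log2 scale, edgeR adjusted p = 2.9e-15), and its part in these differences was not tested.

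**Figure D3:**
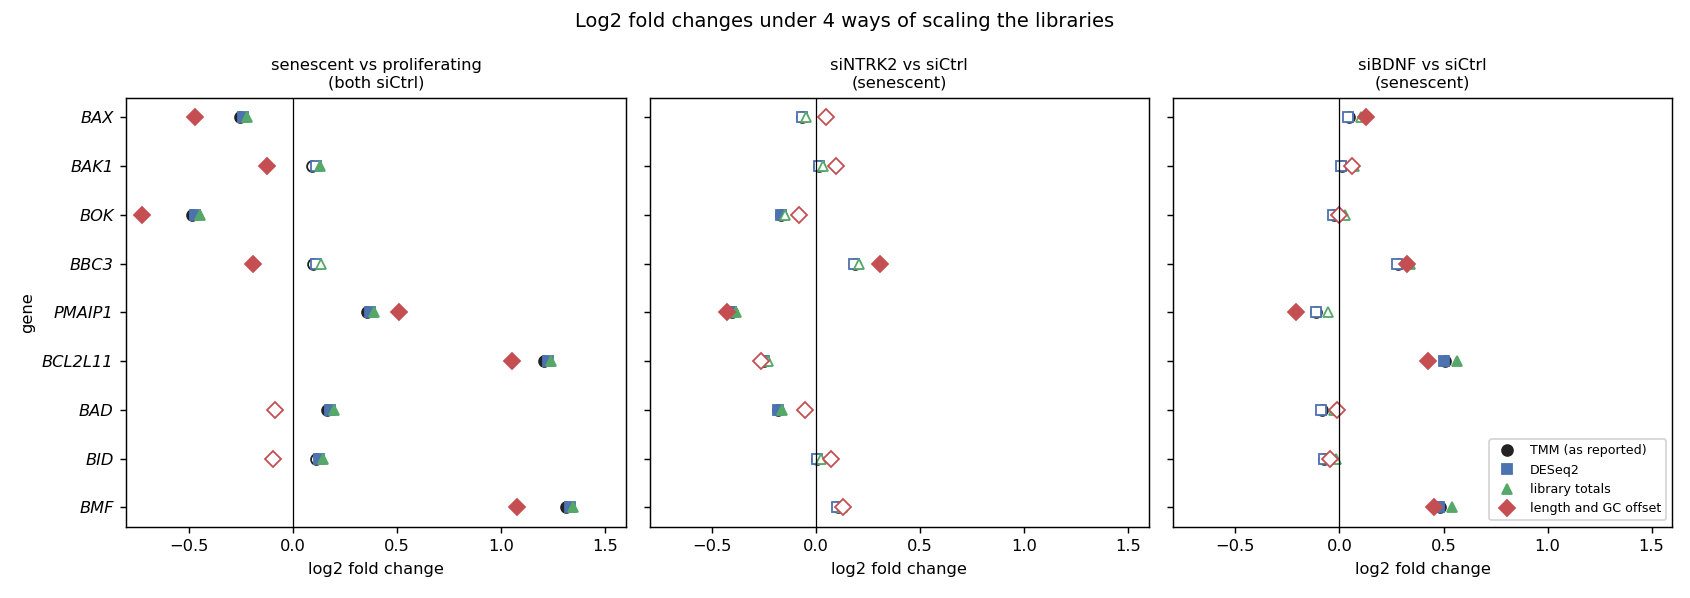
Log2 fold changes (x axis) of the 9 genes under 4 settings (marker shapes), 1 panel per comparison. The settings are edgeR with TMM, library totals or the length and GC correction, and DESeq2 with its own Wald test. Filled markers have an adjusted p under 0.05. TMM, DESeq2 and library totals lie close together. The length and GC correction moves BAX, BAK1, BOK, BBC3, BAD and BID to the left in the first panel, where BMF and BCL2L11 stay above 1.

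Several of the genes share exonic bases with a neighbour on the opposite strand, and whether reads were counted by strand is not given in the sources used here. BAD (chr11:64037302-64052176, GRCh37) shares 404 bases, 23.7% of its exonic bases, with GPR137. GPR137 mRNA differed by 0.36, -0.31 and -0.23 log2 units in the first 3 comparisons, with adjusted p-values of 4.67e-06, 0.00018 and 0.00378, the same signs as BAD. BCL2L11 (chr2:111876955-111926021) shares 727 bases, 10.8% of its exonic bases, with the abundant MIR4435-2HG, which had signs opposite to those of BCL2L11 in each of the 4 comparisons. BMF (chr15:40380091-40401093) shares 461 bases with BMF-AS1, whose level, 0.256 CPM in proliferating and 0.663 CPM in senescent cells, rose by 1.39 log2 units (adjusted p = 0.00173) and was lower than that of BMF in both groups. BOK shares 201 bases with BOK-AS1, at 1.68 to 2.36 CPM on average. The part of shared reads in the values of these genes was not tested.

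Calls among the anti-apoptotic partners in senescence went in both directions. In senescence 3 of 5 tested anti-apoptotic genes were higher, BCL2L1 (0.82), BCL2L2 (0.51) and MCL1 (0.26), and BCL2 was lower (-1.68). Of all genes, 29.8% were higher and 28.3% lower. The median was 0.45, against 0.02 over all genes. BCL2L1 encodes BCL-XL and BCL2L2 encodes BCL-W, both guardians of the outer membrane. After siNTRK2 none of the 5 was called by edgeR, against 21.1% of all genes, with differences from -0.10 to 0.05. At an unadjusted p under 0.05 there were 0, and DESeq2 called 0. Groups did not overlap for 2 of 5, and for 32.8% of all genes. After siBDNF, MCL1, the short-lived partner of NOXA and BIM, was higher (246.1 to 247.7 CPM with siCtrl, 333.6 to 346.2 CPM with siBDNF, log2 fold change 0.46, edgeR adjusted p = 4.73e-08) and BCL2L2 was lower (-0.23, edgeR adjusted p = 0.011). HRK, a neuronal BH3-only gene outside the 10, had 0 reads in proliferating and 44 in senescent siCtrl libraries, at least 13.9-fold higher against a floor of 3 reads over the group. Of the 5 tested genes of that group of more distant relatives, 3 were higher in senescence and 1, BCL2L12, was lower (-0.52). The shares of all genes were again 29.8% and 28.3%.

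Summed over genes per library, effector mRNA was at 81.7 to 90.3 RPKM in proliferating cells, 70.5 to 74.4 in senescent siCtrl cells, 66.8 to 71.3 after siNTRK2 and 73.0 to 74.1 after siBDNF. BH3-only mRNA summed to 52.8 to 55.8 RPKM in proliferating cells and to 61.7 to 65.0, 56.0 to 58.5 and 60.9 to 63.3 RPKM in the 3 senescent groups in the same order. Anti-apoptotic mRNA summed to 67.0 to 69.1 RPKM, then to 96.8 to 99.3, 94.5 to 96.6 and 112.0 to 114.3 RPKM. The ratio of pro-apoptotic to anti-apoptotic mRNA was 1.948 to 2.18 in proliferating cells, 1.366 to 1.405 with siCtrl in senescence, 1.278 to 1.374 with siNTRK2 and 1.197 to 1.202 with siBDNF. Over canonical transcript lengths, which were tried after the data were seen, these ratios were 2.497 to 2.811, 1.696 to 1.745, 1.6 to 1.732 and 1.489 to 1.504. Proliferating libraries were highest and siBDNF libraries lowest with both lengths, and siCtrl and siNTRK2 libraries overlapped with both. Pro-apoptotic sums with siBDNF (134.1 to 137.4 RPKM) lay within those of senescent siCtrl cells (132.3 to 139.3 RPKM). Among the anti-apoptotic genes, MCL1 averaged 39.65 RPKM with siCtrl and 54.44 with siBDNF. BCL2L1 averaged 45.03 and 47 RPKM, and BCL2L2 12.58 and 10.73. The lower ratio with siBDNF thus went with MCL1 more than with the family as a whole. BAX and BAD carry much of the pro-apoptotic sum, so it says little of BMF and BCL2L11. No test was run on the sums.

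**Figure D4:**
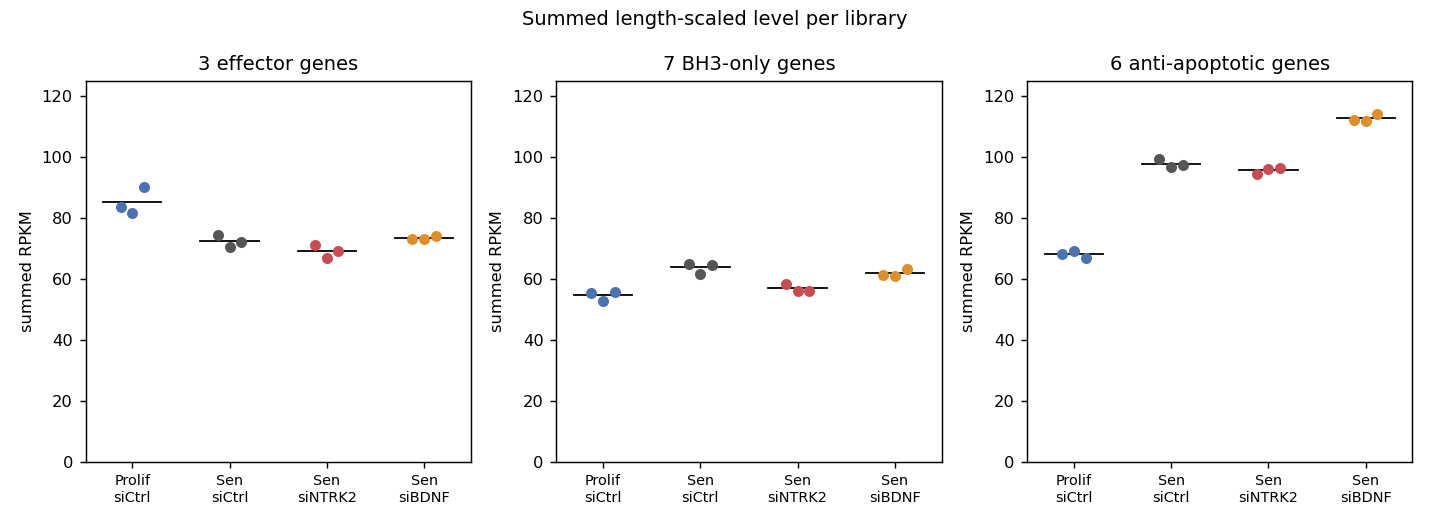
Summed RPKM (y axis, from 0) of the 3 effector, 7 BH3-only and 6 anti-apoptotic genes in each library (points), with group means as lines. Effector sums lie at 81.7–90.3 in proliferating cells and at 66.8–74.4 in the senescent groups, anti-apoptotic sums at 67.0–69.1 and 94.5–114.3.

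For genes that act at or after the pore, the share called in senescence lay near that of all genes. Of 11 genes of the mitochondrial channel and the apoptosome, 4 were higher and 2 lower in senescence, against 29.8% and 28.3% of all genes, among them VDAC2, an outer membrane channel that binds BAK (0.43), HTRA2 (0.39), and APAF1, the apoptosome scaffold (-0.51). With siNTRK2 1 was higher and 3 were lower (11.1% and 10% of all genes), XIAP, an inhibitor of caspases, at 0.24, CASP9 at -0.32, VDAC2 at -0.15 and VDAC1 at -0.12. With siBDNF 2 were higher (10.3% of all genes), XIAP (0.36) and APAF1 (0.38), and 2 lower (10.2%), VDAC2 (-0.18) and VDAC1 (-0.16). The medians were 0.09, -0.09 and 0.01 in the 3 comparisons.

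Regulators of the 10 genes were called in both directions. In senescence 3 of 10 were higher and 5 lower, against 29.8% and 28.3% of all genes. The stress factor ATF4 fell by 0.88 on the log2 scale, whereas MDM2, a ubiquitin ligase induced by DNA damage, rose by 0.61 and DYNLL2, a dynein light chain that binds BMF, by 0.37. Of the FOXO factors known to activate BCL2L11 and BBC3, FOXO3 was lower in senescence (-0.46, edgeR adjusted p = 1.13e-07) and FOXO1 was higher (edgeR adjusted p = 0.000313), with 1 to 3 reads per proliferating and 12 to 27 per senescent siCtrl library. With siNTRK2 1 was higher, ATF4 (0.25), and 3 were lower (11.1% and 10% of all genes), including DYNLL2 (-0.20) and MDM2 (-0.23). After siBDNF 1 was higher, FOXO3 (0.22, edgeR adjusted p = 0.00555), and 4 were lower (10.3% and 10.2% of all genes), including DYNLL1, the other dynein light chain (-0.21).

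Other genes known to be induced by DNA damage were compared because PMAIP1, BBC3 and BAX belong to the same response. All 10 were higher in senescence (median 0.60; 29.8% of all genes were higher), among them GDF15 (2.52), CDKN1A (1.62), RRM2B (1.19) and TNFRSF10B (0.59); of the 3 members, PMAIP1 was higher, BAX lower and BBC3 not called. With siNTRK2 5 of 10 were lower and 1 higher (median -0.17), against 10% and 11.1% of all genes. CDKN1A was at -0.50, GDF15 at -0.62, FDXR at -0.39 and SESN2 at -0.26, with PMAIP1 at -0.41 beside them. With siBDNF 4 were higher and 0 lower by edgeR (median 0.12), against 10.3% and 10.2% of all genes. These 4 were SESN1 (0.42), ZMAT3 (0.26), TNFRSF10B (0.15) and RRM2B (0.17). At an unadjusted p under 0.05, 1 was lower, and DESeq2 called 0 lower. Between the 2 siRNAs, 7 of 10 were lower with siNTRK2 and 0 higher by edgeR, against 7.86% and 8.84% of all genes. At an unadjusted p under 0.05 or by DESeq2, 0 were higher.

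**Figure D5:**
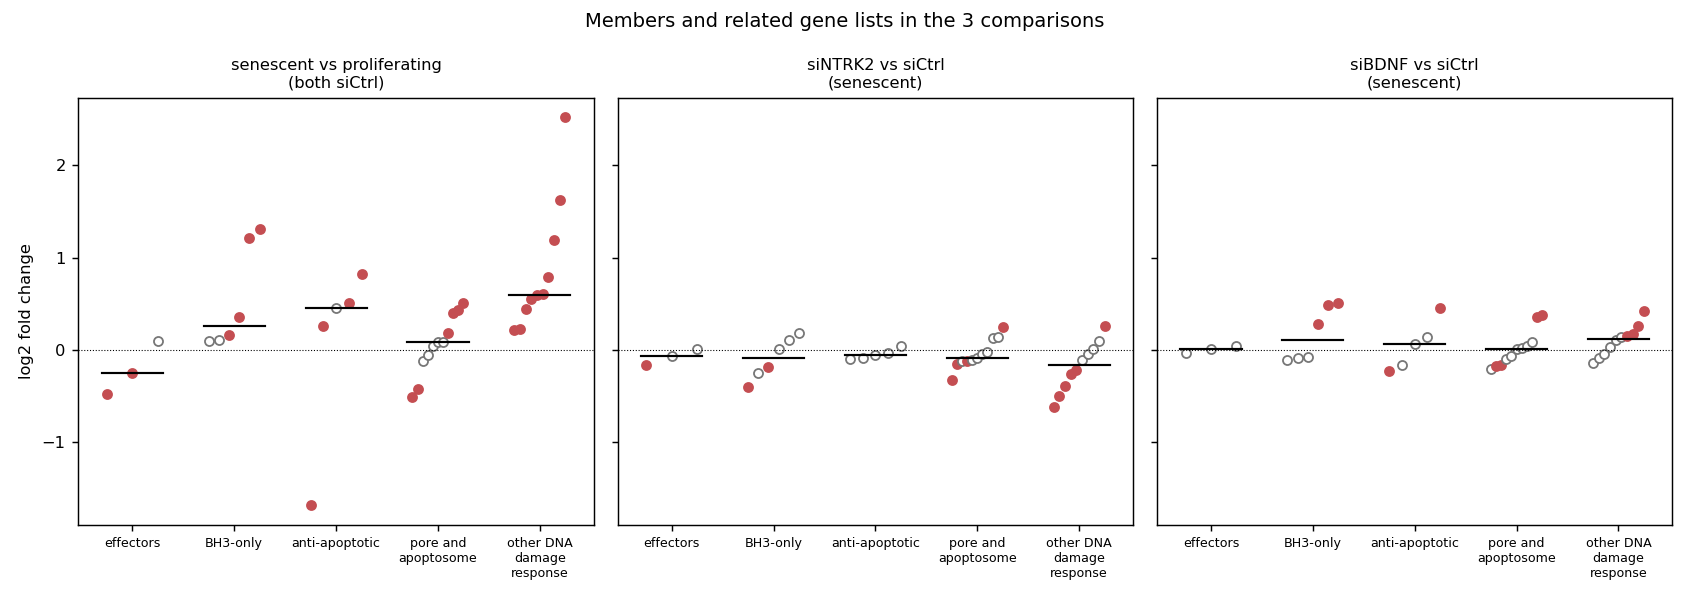
Log2 fold changes (y axis) of single genes (points, filled red at an adjusted p under 0.05) in 5 lists, with list medians as lines, 1 panel per comparison. All 10 other DNA damage response genes are above 0 in the first panel, and in the second 5 are called below 0 and 1 above.

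For the 3 tested members with the widest range of group means, the genes whose levels followed most closely were sought, by the root mean square difference of centred log2 CPM over the 12 libraries. BMF (own root mean square 0.702) was followed by SIK1 (0.16), LAMB3 (0.16) and ENC1 (0.162). BCL2L11 (0.621) was followed by MMP1 (0.121), WTAPP1 (0.123) and SPRY4 (0.155). BOK (0.254) was followed by VASN (0.0422), FOXL1 (0.0509) and FSCN1 (0.0584). These likenesses describe 12 libraries that share 4 group means.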

How the data were processed

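Polyadenylated RNA of 12 WI-38 libraries (4 groups of 3) was prepared as stranded libraries and sequenced in pairs by the authors. Per the labels and the study's methods, reads were demultiplexed with bcl2fastq 2.20.0.422, trimmed with cutadapt, aligned to hg19 with STAR 2.4.0j and counted per Ensembl gene with featureCounts 1.6.4. The counts were deposited by the authors as whole numbers, without normalization, 1 file per library. Whether counting used strand is not given in the sources used here. Of the 57773 identifiers, 55538 had a symbol in a gene name table.

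Counts were fitted in R 4.3.3 with edgeR 4.0.16 (TMM, filterByExpr over the groups, quasi-likelihood F test, 1 term per group, all 12 libraries), and Benjamini-Hochberg adjustment ran over 21518 genes, with calls at an adjusted p under 0.05. To obtain a standard error, the log2 fold change was divided by the root of F; intervals are 95% t intervals from the same fit. CPM use TMM-adjusted library sizes, and RPKM divide CPM by GENCODE exon lengths mapped to GRCh37. Changes are therefore relative to the other genes of a library. Replicates of a group differed by 3.92 to 13.6 chi-square units per gene, more than counting noise, so none is a repeated file; the study states at least 3 independent experiments for its cell culture work, with all groups handled together in each, but the labels do not tie library numbers to experiments. p-values measure the spread between these libraries. Intervals and the floor of 3 reads cover counting error or library spread only.

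Alternatives were DESeq2 1.42.0 (the study's test), its size factors, library totals, other filters, only the groups compared, a replicate block, an offset for length and GC content (spline with 4 degrees of freedom; 93.3% of genes had both values), the study's additional fold threshold of 1, and leaving out each library. Models were tested on simulated counts. All 10 genes are named. Of each related list up to 4 genes with the smallest adjusted p are named in the results. FOXO1 is named outside this rule. List genes that differed between the siRNAs are named in the closing section; some list members count in their list but are not reported here, and overlapping neighbours were named after their values were seen. The members, lists, motifs and comparisons were chosen with earlier results of these data known.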

Additional observations from a re-analysis of the deposited data

Results flagged for a closer look

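Effects of the 2 siRNAs, each against the same siCtrl libraries, were compared by a direct test of siNTRK2 against siBDNF (edgeR quasi-likelihood, adjusted p under 0.05), and the genes past it in the lists of partners, regulators and DNA damage response genes are given here. Among the pro-apoptotic genes, PMAIP1 (-0.29 on the log2 scale, siNTRK2 minus siBDNF), BCL2L11 (-0.76) and BMF (-0.38) were lower with siNTRK2. Among their anti-apoptotic partners, MCL1 (-0.41) and BCL2L1 (-0.15) were lower, as was the apoptosome scaffold APAF1 (-0.25). Of the regulators, ATF4 (0.30) and YWHAZ (0.22) were higher, and MDM2 (-0.25) and FOXO3 (-0.20) were lower. Of the other DNA damage response genes, GDF15 (-0.65), CDKN1A (-0.46), SESN2 (-0.39), FDXR (-0.30), FAS (-0.22), RRM2B (-0.21) and TNFRSF10B (-0.14) were lower. The proliferation markers TOP2A (0.98), MKI67 (0.81), LMNB1 (0.80) and CCNB1 (0.56) were higher and the immune marker CD68 (-1.21) was lower in the same siNTRK2 libraries; their part in these differences was not tested.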

How the results depend on the processing

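Of 504 values of single genes under the alternatives, 442 kept their direction and their side of the threshold, 31 lost their call, 16 gained one and 15 changed sign. BAX, BOK, PMAIP1, BCL2L11 and BMF in senescence, PMAIP1 with siNTRK2, BMF with siBDNF, and BCL2L11 and PMAIP1 between the siRNAs kept direction and call in all 14 alternatives. Replicate numbers did not pair the libraries (mean correlation of deviations for shared numbers 0.00184, range -0.0396 to 0.027). Libraries of different numbers had a mean of -0.000936 (range -0.0489 to 0.0461), so no other pairing across groups stood out either. The replicate block left 6, 3, 3 and 3 genes called in the senescence, siNTRK2, siBDNF and siNTRK2-against-siBDNF comparisons, with every call of a single gene kept.

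Counts of called genes among the 9 (6, 3, 3 and 3) became 2, 0, 0 and 0 with the additional threshold of 1, by construction. They became 5 with siBDNF under the length and GC correction, 5 between the siRNAs with library totals and 1 with siNTRK2 without a filter; the cause was not tested. Leaving out 1 library gave 5 to 7, 1 to 3, 1 to 3 and 2 to 4. Over all genes, 12501, 4548, 4412 and 3595 calls became 3604, 206, 131 and 250 with the additional threshold and 11565 to 12381, 2943 to 4804, 2914 to 4651 and 2286 to 3249 without 1 library.

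Signs changed under the length and GC correction for BAD (-0.0832), BAK1 (-0.12), BBC3 (-0.19) and BID (-0.10) in senescence and for BAX with siNTRK2 (0.047). Library totals changed those of BOK with siBDNF (0.0288) and BAK1 between the siRNAs (-0.0368), and a minimum of 10 counts in every library the latter too (-0.00735). Leaving out 1 library gave ranges that cross 0 for BBC3 in senescence (-0.0247 to 0.163) and between the siRNAs (-0.194 to 0.00664), BID with siNTRK2 (-0.0203 to 0.0453), BAK1 with siBDNF (-0.000222 to 0.0356) and BAK1 between the siRNAs (-0.00741 to 0.0132). BCL2L11 had the fewest reads of the tested genes, and its differences the widest intervals.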
